A study of Arabidopsis thaliana with 36 samples.

Results

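The early auxin response of CASP1::shy2-2/slr-1 roots was measured as 3 RNA-seq libraries taken after 2 h on 10 µM 1-naphthaleneacetic acid (NAA), a synthetic auxin, against 3 libraries labelled as having no treatment. These 6 of the series' 36 libraries were chosen by their titles. All 32678 genes of their count files were used, without the 5 summary categories, and 20939 genes passed the filter on low counts and were tested. Both groups were Arabidopsis thaliana Col-0 seedlings, 7 days old at harvest and grown in continuous light, and only root sections without the tip and the shoot were taken. Both groups carry slr-1, a stabilised form of the repressor IAA14. Both also carry a transgene in which the CASP1 promoter, active in the differentiated endodermis, drives shy2-2, a stabilised IAA3. The only difference named by the labels is the NAA treatment. The comparison libraries were 3 untreated and 3 NAA-treated (2 h) libraries of slr-1, the same background without the CASP1::shy2-2 transgene. The labels do not say whether replicates came from separate cultures, how many seedlings a library holds, or whether untreated seedlings were also moved to a fresh plate 2 h before harvest. The p-values therefore measure a spread between libraries that may be technical. That spread was estimated over all 36 libraries of the series, not only over those compared.

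Auxin is perceived by TIR1/AFB receptors together with Aux/IAA repressors, which are then degraded. Auxin response factors (ARFs) are thereby released and transcribe early genes, among them most Aux/IAA genes themselves and the GH3 enzymes that conjugate auxin to amino acids. The dominant mutations slr-1 and shy2-2 make their repressor resistant to this degradation, so that part of the response stays blocked. The endodermis surrounds the vascular cylinder, carries the lignified Casparian strip and later a coat of suberin, a polyester that seals the cell, and must yield to lateral roots that grow out through it.

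The untreated libraries held 39.4 to 48.5 M reads in genes and the 2 h libraries 28.1 to 34.7 M. The first principal component of the 6 libraries held 55.9% of the variance and separated treated from untreated. The second held 24% and set 2 h replicate 2 at -61.4 apart from 2 h replicates 1 and 3 at 12.1 and 38.4. Of the 6508 genes called in the comparison, 371 lay at least 1 log2 unit away from both other 2 h libraries in replicate 2, against 74 for replicate 1 and 106 for replicate 3. The library codes of the 2 h samples end in n or, for replicate 2, in x, and those of the controls carry no such letter. Its meaning is not known, and within these 6 libraries it cannot be told apart from the treatment. Markers of the root tip and cap were near 0, with a sum of at most 1.37 CPM (read counts scaled to library size) in every library of the comparison and with SMB, BRN1 and BRN2 at 0 in all 2 h libraries. The 16 genes of the Casparian strip and endodermal identity summed to 673, 887 and 737 CPM in untreated replicates 1, 2 and 3 and to 717, 867 and 647 CPM at 2 h. Genes of this list were thus detected at both times, which does not measure the share of any 1 cell layer. In the same sections 9 xylem markers summed to 704 to 901 CPM untreated and 714 to 805 CPM at 2 h, and 6 phloem markers to 231 to 345 CPM and 312 to 421 CPM. The 10 root hair and epidermis markers summed to 81.4 CPM in 2 h replicate 2, against 33.9 and 21.4 in the other 2 h libraries and 41.4 to 45.1 in the controls. The shoot list of 8 genes summed to 254 CPM in 2 h replicate 2 and to between 138 and 197 CPM in the other 5 libraries. The part of these marker levels in the results was not tested.

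After 2 h of NAA, 3289 genes were higher, which is 15.7% of those tested, and 3219 were lower, which is 15.4% (edgeR quasi-likelihood test, Benjamini-Hochberg adjusted p under 0.05). Most changes were small: 988 genes rose and 441 fell by at least 1 log2 unit, and 345 rose and 69 fell by at least 2 units. The median of all genes tested was -0.02 on the log2 scale. Rises outnumbered falls among Aux/IAA genes (15 and 1 of 27 tested), glutathione transferases (20 and 2 of 42), abscisic acid genes (7 and 0 of 13) and genes of tryptophan-derived defence compounds (9 and 0 of 13). Falls outnumbered rises among nitrate genes (4 and 0 of 11), expansins (8 and 3 of 23) and ARFs (5 and 1 of 14). Scaling by total counts in place of TMM shifted the median by -0.07 and gave 2604 higher and 4520 lower genes, so 36.6% of calls were higher against 50.5% in the main test. Without 2 h replicate 1 the count of lower genes fell to 1944. In bulk root sections, fewer cells of a type and less RNA per cell cannot be told apart.

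**Figure D1:**
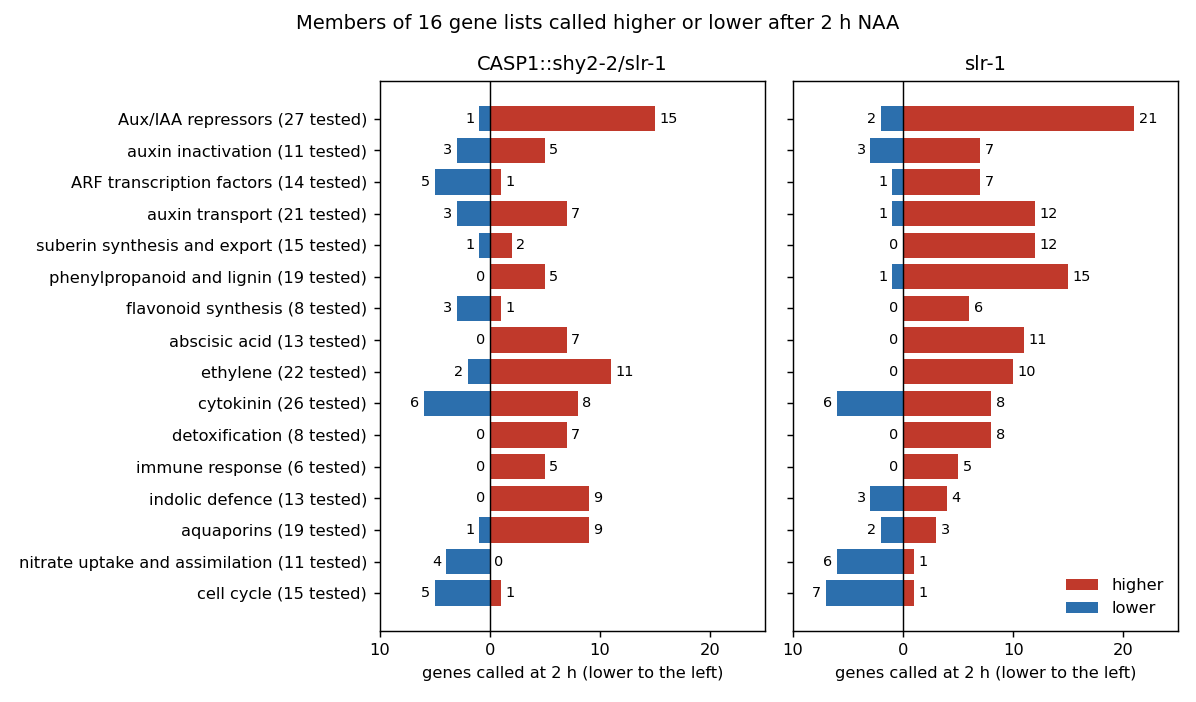
Horizontal bars give the number of list members called higher (red, to the right) or lower (blue, to the left) after 2 h of NAA at an adjusted p under 0.05, in CASP1::shy2-2/slr-1 (left panel) and slr-1 (right panel), with the number tested beside each list name. The suberin list has 2 members higher in CASP1::shy2-2/slr-1 and 12 in slr-1, while the indolic defence list has 9 against 4.

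The genes behind the genotype were read first. IAA3 (AT1G04240), whose reads may come from the native gene and the transgene alike, stood at 38.6, 53.3 and 42.6 CPM in untreated replicates 1, 2 and 3 and at 43, 56.2 and 58.5 CPM at 2 h, in the same replicate order as all values below. The groups overlapped, and the log2 change of 0.23 ± 0.12 (SE, n = 3 per group) had an adjusted p of 0.161 (edgeR). IAA14 (AT4G14550), which holds the slr-1 mutation, stood at 5.99, 8.60 and 5.67 CPM untreated and at 4.85, 9.62 and 3.42 CPM at 2 h. These groups also overlapped, with a log2 change of -0.18 ± 0.29 and an adjusted p of 0.668 (edgeR). In slr-1 the same gene went from 5.4, 4.91 and 6.78 CPM to 33.6, 27.1 and 23.8 CPM. The difference between the 2 responses of IAA14 was -2.49 ± 0.40 on the log2 scale, with an adjusted p of 0.000438 in edgeR's test of the difference. CASP1 (AT2G36100), the gene whose promoter drives the transgene, stood at 40.9, 74.9 and 44 CPM untreated and at 36.7, 77.7 and 27.8 CPM at 2 h. It was highest in replicate 2 of both groups, and its log2 change of -0.17 ± 0.60 had an adjusted p of 0.858 (edgeR).

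Aux/IAA genes encode the repressors that auxin both destroys and induces. Of 29 members 27 were tested, and 15 rose and 1 fell, with a median log2 change of 0.58 beside -0.02 for all genes. IAA19 (AT3G15540, chromosome 3, 5264001 to 5265695, plus strand, TAIR10.1 as all coordinates) went from 3.58, 2.14 and 3.28 CPM to 17.3, 24.3 and 20.5 CPM. The groups did not overlap, and the rise was 6.92-fold (log2 2.79 ± 0.20, edgeR adjusted p = 1.08e-10). IAA5 (AT1G15580) went from 0.617, 0.511 and 0.738 CPM to 2.64, 4.16 and 3.27 CPM, a 5.41-fold rise with no overlap. IAA11 and IAA13 each rose 2.29-fold, with adjusted p of 3.1e-07 and 3.56e-07 (edgeR). In slr-1 21 of the 27 rose and 2 fell, where 20.3% of all genes rose and 22.5% fell (42.8% in either direction), and in the test of the difference 4 members responded less in CASP1::shy2-2/slr-1 and 0 more, with IAA14 among the 4. Of all genes 7.07% responded less and 8.49% more. Leaving out 2 h replicate 2 or slr-1 control replicate 3 gave 2 members that responded more. With the code letter n as a term, a fit that always leaves out 2 h replicate 2 as well, 7 responded less and 2 more.

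Upstream windows of IAA19 and of GH3.3 are shown because their genes mark the auxin response. They run from 250 bases before to 50 bases after the annotated gene start on the gene's strand and come from the RefSeq genome, with the auxin response elements TGTCTC and TGTCGG, searched on both strands, in capitals. IAA19 holds 3 matches, at -184, -145 and -128 from the start (chr3:5263751-5264050, plus strand), and GH3.3 holds 1, at -116 (chr2:9866513-9866812, minus strand).
IAA19: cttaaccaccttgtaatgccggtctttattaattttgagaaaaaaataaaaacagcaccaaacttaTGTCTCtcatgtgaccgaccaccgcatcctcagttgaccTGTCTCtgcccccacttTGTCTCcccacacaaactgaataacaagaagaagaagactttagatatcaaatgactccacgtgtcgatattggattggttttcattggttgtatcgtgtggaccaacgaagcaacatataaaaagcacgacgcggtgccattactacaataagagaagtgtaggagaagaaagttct
GH3.3: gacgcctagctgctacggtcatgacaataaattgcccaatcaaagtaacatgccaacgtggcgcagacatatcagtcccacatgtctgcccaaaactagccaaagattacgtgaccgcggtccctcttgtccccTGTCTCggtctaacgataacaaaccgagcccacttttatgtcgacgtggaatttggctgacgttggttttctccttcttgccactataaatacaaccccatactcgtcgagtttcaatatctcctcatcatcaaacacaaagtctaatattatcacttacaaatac
One or more matches lay in 15 of the 27 Aux/IAA windows (55.6%), in 18.6% of the 20852 windows of tested genes, in 18% of those of genes that rose and in 19.4% of those of genes that fell. The share among all genes that rose was thus close to that of all windows.

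Genes that inactivate auxin moved both ways, with 5 of 11 tested members higher and 3 lower. GH3.2 (AT4G37390, chromosome 4, 17579618 to 17582022), which conjugates auxin to amino acids, went from 165, 218 and 171 CPM to 549, 512 and 533 CPM. The groups did not overlap, and the rise was 2.88-fold (log2 1.53 ± 0.17, edgeR adjusted p = 1.3e-07). In slr-1 GH3.2 went from 32.7, 34.5 and 38.7 CPM to 543, 548 and 631 CPM. The treated ranges of GH3.2 overlapped between the genotypes, and the untreated levels were higher in every CASP1::shy2-2/slr-1 library than in any slr-1 library. The difference of the responses was -2.50 ± 0.23 (log2, edgeR adjusted p = 3.06e-07). GH3.3 (AT2G23170) behaved similarly, from 143, 197 and 152 CPM to 428, 399 and 387 CPM here and from 35.0, 38.0 and 81.3 CPM to 768, 833 and 971 CPM in slr-1, where its treated level was also higher. Its rise here was 2.46-fold and the difference of responses was -2.76 ± 0.31 (log2, edgeR adjusted p = 3.92e-06). GH3.5 rose 3.22-fold, from 13.8 to 18.1 CPM untreated to 36.5 to 66.0 CPM at 2 h. UGT74D1, a glucosyltransferase that acts on auxin and its oxidised form, rose 2.06-fold. IAMT1, which methylates indole-3-acetic acid, fell 3.86-fold (log2 -1.95 ± 0.40, edgeR adjusted p = 0.00053), from 5.35, 8.44 and 6.71 CPM to 2.19, 2.30 and 0.78 CPM, with no overlap. Of the 11 members 4 responded less than in slr-1 and 0 more, beside 7.07% and 8.49% of all genes.

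ARF genes fell more often than they rose, with 5 of 14 lower and 1 higher. The count of lower ARF genes was 3 without 2 h replicate 1 and 3 without control replicate 2. ARF6 (AT1G30330), an activator, went from 125, 95.0 and 132 CPM to 68.8, 81.5 and 62.1 CPM, without overlap (log2 -0.73 ± 0.13, edgeR adjusted p = 0.000125). ARF8, its close relative, changed by -0.42 ± 0.12, and ARF16, a repressor, by -0.32 ± 0.09 (log2, adjusted p = 0.00745 and 0.0123, edgeR). ARF5 (MONOPTEROS), an activator of primordium formation, rose by 0.51 ± 0.16, from 28.5 to 32.7 CPM untreated to 38.5 to 48.6 CPM. In slr-1 7 ARF genes rose and 1 fell. The test of the difference called 8 ARF genes with a lower response in CASP1::shy2-2/slr-1 and 0 with a higher one, beside 7.07% and 8.49% of all genes. Among the 8 were ARF16 (-1.08 ± 0.13), ARF6 (-0.94 ± 0.18) and ARF8 (-0.72 ± 0.17). No library left out alone moved that count by more than 1.5 times.

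Of 21 tested auxin transport genes 7 rose and 3 fell. PILS3 and PILS5, carriers of the endoplasmic reticulum, rose 2.20-fold and 2.07-fold, and the efflux carrier PIN3 rose 1.63-fold. The response of PILS3 was smaller than in slr-1 by 0.71 log2 units (-0.71 ± 0.15, edgeR adjusted p = 0.00349). LAX3, an influx carrier of the cells over lateral root primordia, fell 2.68-fold, from 120, 100 and 127 CPM to 31.5, 59.8 and 38.6 CPM (edgeR adjusted p = 2.22e-05). The 2 h libraries of LAX3 all lay below the controls, with replicate 2 the highest of them. None of 10 synthesis genes rose and 3 fell, 1 of them without 2 h replicate 3. TAR2, a tryptophan aminotransferase of auxin synthesis, went from 31.3, 31.4 and 31.1 CPM to 17.2, 22.4 and 18.2 CPM (log2 -0.70 ± 0.19, edgeR adjusted p = 0.00687). Among other early auxin genes 4 of 7 rose and 0 fell, and 1 responded more than in slr-1 (0 without 2 h replicate 3) and 0 less. PBP1, which binds the kinase PINOID, rose 3.66-fold from 3.9, 5.90 and 4.20 CPM to 16.7, 15.3 and 19.4 CPM. No library overlapped, and HAT2, a homeodomain factor, rose 2.67-fold and ARGOS, a regulator of organ size, 3.95-fold. Of 34 tested genes annotated as SAUR-like auxin-responsive 8 rose and 2 fell, and in slr-1 3 rose and 9 fell. In the test of the difference 8 of these 34 responded more than in slr-1 and 0 less, beside 8.49% and 7.07% of all genes. The 8 became 2 without 2 h replicate 3 and 10 without 2 h replicate 2.

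Of 16 genes of lateral root initiation 7 rose and 1 fell, and without 2 h replicate 2 the counts were 4 and 3. MAKR4, a regulator of founder cells, went from 1.53, 0.694 and 0.839 CPM to 4.13, 6.91 and 4.61 CPM, a 5.15-fold rise (log2 2.36 ± 0.36, edgeR adjusted p = 2.25e-05). LBD29, a direct target of ARF7 and ARF19, stayed low, going from 0.173, 0.654 and 0.331 CPM to 1.5, 1.73 and 1.37 CPM. Both genes rose without overlap, yet their untreated levels in slr-1 were already higher, at 6.34 to 7.20 CPM for MAKR4 and 4.84 to 7.96 CPM for LBD29. LBD18 went from 3.4, 2.76 and 3.43 CPM to 5.66, 4.84 and 5.13 CPM (log2 0.71 ± 0.15), against 3.22, 3.62 and 3.63 CPM to 20.5, 21.9 and 21.1 CPM in slr-1. Its untreated ranges overlapped between the genotypes, and its response was lower by 1.89 log2 units (-1.89 ± 0.21, edgeR adjusted p = 2.15e-06). In the list 3 members responded less than in slr-1 and 0 more, beside 7.07% and 8.49% of all genes.

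**Figure D2:**
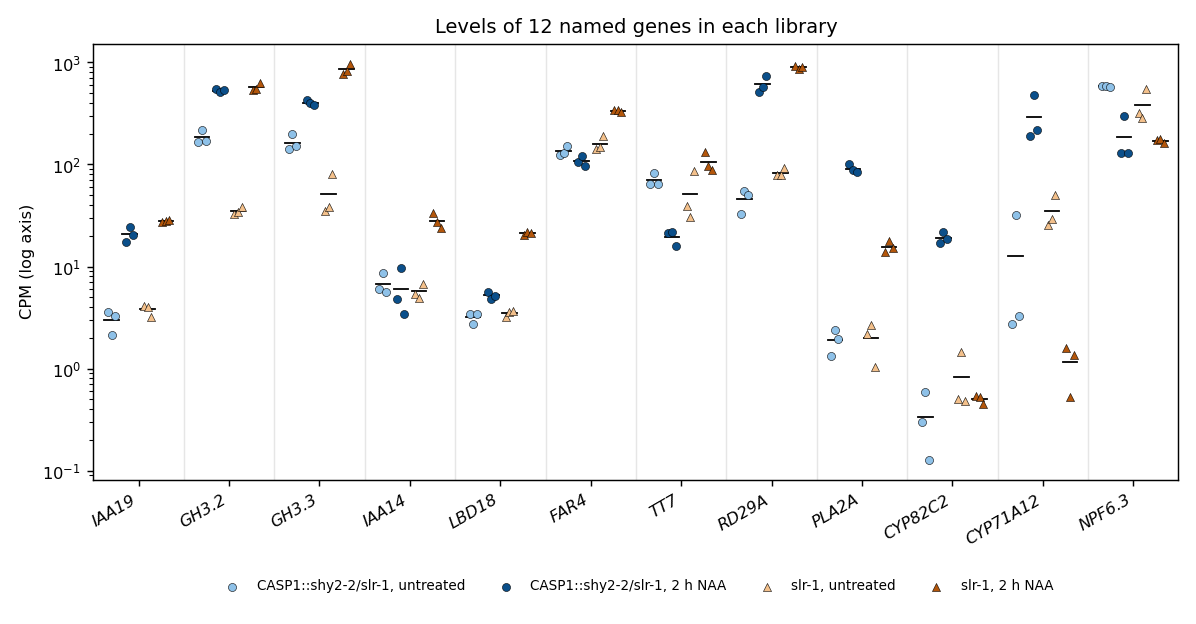
Points are CPM in single libraries on a log axis for 12 genes, with circles for CASP1::shy2-2/slr-1, triangles for slr-1, pale colours for untreated and dark colours for 2 h of NAA, and black bars for the mean of 3. IAA14 overlaps between untreated and treated CASP1::shy2-2/slr-1 libraries and does not in slr-1, while CYP71A12 rises to 192 to 476 CPM in one genotype and lies at 0.527 to 1.59 CPM in the other.

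Few genes that build suberin were called after 2 h. Of 15 genes of suberin synthesis and export 2 were higher and 1 lower, a share near or under that of all genes, and their median log2 change was 0.03. With single libraries left out, 1 (2 h replicate 2 or control replicate 1) to 4 (2 h replicate 3) were higher. The count of lower ones was 0 without 2 h replicate 1, 2 h replicate 3 or control replicate 3, 2 without 2 h replicate 2 and 3 without control replicate 2. With the code letter n as a term 1 was higher and 2 lower. In slr-1 12 of the 15 rose and 0 fell, with a median of 1.41. The test of the difference called 11 with a lower response in CASP1::shy2-2/slr-1 and 0 with a higher one, beside 7.07% of all genes lower and 8.49% higher. No library left out alone moved the 11 by more than 1.5 times. FAR4 (AT3G44540, chromosome 3, 16123426 to 16128030), which makes the fatty alcohols of suberin, stood at 124, 131 and 151 CPM untreated and at 106, 121 and 97.5 CPM at 2 h. Its log2 change of -0.32 ± 0.11 had an adjusted p of 0.0227 and lost that call without 2 h replicate 1 (-0.30), 2 h replicate 3 (-0.25) or control replicate 3 (-0.24) in edgeR. In slr-1 FAR4 went from 141, 147 and 189 CPM to 340, 340 and 327 CPM, and the difference of the responses was -1.40 ± 0.15 (log2, edgeR adjusted p = 1.97e-06). GPAT7, a glycerol-3-phosphate acyltransferase, went from 3.48, 5.78 and 5.67 CPM to 8.42, 14.8 and 5.02 CPM here and from 5.09, 4.96 and 5.88 CPM to 49.8, 60.7 and 56.6 CPM in slr-1. The groups of GPAT7 overlapped here, and its call (log2 0.92 ± 0.32, edgeR adjusted p = 0.0302) was lost without 2 h replicate 2 (0.44) or control replicate 1 (0.72). Its response differed by -2.47 ± 0.45 (log2). KCS20, which elongates fatty acids, rose 1.63-fold, from 98.8, 106 and 113 CPM to 192, 153 and 173 CPM, and responded less than in slr-1 by 0.97 log2 units (-0.97 ± 0.25, edgeR adjusted p = 0.011).

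The levels of the suberin genes also differed between the genotypes directly. Without NAA 6 of the 15 were higher than in slr-1 and 0 lower, where 12.3% of all genes were higher and 12.7% lower. After 2 h 0 were higher and 10 lower, where 9.05% of all genes were higher and 9.22% lower. Of 7 MYB factors of suberin, 2 rose and 0 fell. They were MYB41, at 4.12, 6.13 and 5.19 CPM untreated and 18.8, 25.7 and 9.36 CPM at 2 h, and MYB39, at 1.55, 3.27 and 1.60 CPM untreated and 5.78, 10.2 and 2.71 CPM at 2 h. MYB41 rose 3.48-fold without overlap, while 2 h replicate 3 of MYB39 lay below control replicate 2. Both activate suberin genes when expressed. Of the 16 genes of the Casparian strip and endodermal identity 1 rose and 1 fell. Without 2 h replicate 2 the count of lower ones was 5.

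Phenylpropanoid and lignin genes, which supply the aromatic part of suberin and lignin, gave 5 higher and 0 lower of 19. Without 2 h replicate 3, or without control replicate 2, 8 were higher. In slr-1 15 of the 19 rose and 1 fell. In the test of the difference 1 responded more here and 3 less, beside 8.49% and 7.07% of all genes. The 3 became 13 without 2 h replicate 2 and 2 without 2 h replicate 3. PAL4, a phenylalanine ammonia-lyase at the entry of the pathway, went from 114, 116 and 131 CPM to 252, 252 and 227 CPM (2.03-fold), and CYP98A3, a hydroxylase of the pathway, rose 1.61-fold. Of 8 tested flavonoid genes, with a median log2 change of -0.15, 3 fell and 1 rose, that 1 not without 2 h replicate 1, 2 h replicate 2, control replicate 1 or control replicate 3, while 6 rose and 0 fell in slr-1. TT7 (AT5G07990), a flavonoid hydroxylase, fell 3.58-fold from 64.4, 82.8 and 64.0 CPM to 21.3, 21.9 and 15.8 CPM (edgeR adjusted p = 3.64e-05). In slr-1 it went from 39.4, 30.3 and 85.5 CPM to 132, 96.4 and 88.1 CPM. TT4, chalcone synthase, fell from 1200, 1130 and 992 CPM to 717, 662 and 637 CPM (log2 -0.72 ± 0.17). The responses differed by -2.86 ± 0.41 for TT7 and -1.01 ± 0.24 for TT4 (log2, edgeR adjusted p = 0.000101 and 0.00769). In the test of the difference 7 of 8 flavonoid genes responded less and 0 more, beside 7.07% and 8.49% of all genes.

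**Figure D3:**
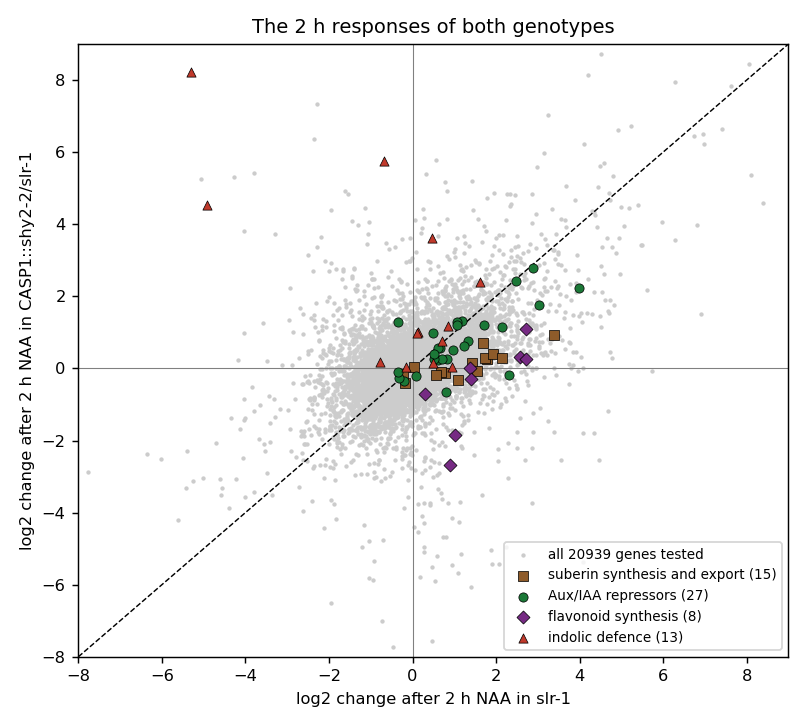
Each point is a gene, with its log2 change after 2 h of NAA in slr-1 on the horizontal axis and in CASP1::shy2-2/slr-1 on the vertical axis. Coloured symbols mark 4 gene lists, the dashed line marks equal responses, and 5 genes lie outside the range shown. Most suberin and flavonoid genes lie below the line and 3 genes of indolic defence lie far above it.

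Where the groups did not overlap and the log2 CPM averaged 1 or more, the largest rise was that of CYP82C2 (AT4G31970, chromosome 4, 15462350 to 15464563, plus strand), which hydroxylates indole carbonyl nitriles. It went from 0.296, 0.592 and 0.127 CPM to 17.1, 21.6 and 18.4 CPM, a 54.2-fold rise (log2 5.76 ± 0.55, edgeR adjusted p = 2.05e-08). In slr-1 it stood at 0.507, 1.46 and 0.484 CPM untreated and at 0.540, 0.527 and 0.451 CPM after NAA. The groups were far apart here and overlapped in slr-1. CYP71A12 (AT2G30750), which forms tryptophan-derived nitriles used in defence, went from 2.71, 31.8 and 3.28 CPM to 192, 476 and 216 CPM. Replicate 2 was highest in both groups, every treated library lay above every control, and the rise was 23.2-fold (log2 4.53 ± 0.63, edgeR adjusted p = 6.07e-06). In slr-1 CYP71A12 moved the opposite way, from 25.3, 29.5 and 50.8 CPM to 1.59, 0.527 and 1.35 CPM. Its near-identical copy CYP71A13 stood at 0, 0.0204 and 0 CPM untreated and at 3.92, 2.67 and 3.23 CPM at 2 h, and reads of such copies may be assigned to either. AT1G26390 and AT1G26380, neighbouring genes of the FAD-binding Berberine family, rose from 1.18, 5.94 and 1.09 CPM to 82.4, 169 and 80.4 CPM and from 0.715, 5.56 and 0.788 CPM to 49.5, 33.4 and 42.7 CPM. Control replicate 2 was the highest control for both, and no treated library overlapped.

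Of 13 genes of indolic defence 9 rose and 0 fell, against 15.7% and 15.4% of all genes, and their median log2 change was 1.01. Without 2 h replicate 2 the count of lower members was 2. In slr-1 4 rose and 3 fell. The test of the difference called 6 with a higher response and 0 with a lower one, beside 8.49% and 7.07% of all genes. Without 2 h replicate 2 it called 2 with a lower one. The responses exceeded those of slr-1 by 6.45 ± 0.76 for CYP82C2, 9.45 ± 0.96 for CYP71A12 and 3.16 ± 0.68 for MYB122, a regulator of indole glucosinolates (log2, edgeR adjusted p = 8.78e-06, 1.09e-06 and 0.00374). MYB122 itself went from 0.074, 0.388 and 0.178 CPM to 2.1, 4.20 and 1.97 CPM. For AT1G26390 the difference was 9.57 ± 0.94 and for AT1G26380 4.06 ± 0.70.

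Also among the 15 largest rises, PLA2A (AT2G26560), a patatin-like lipase induced by pathogens, went from 1.33, 2.39 and 1.96 CPM to 101, 87.9 and 83.8 CPM, a 47.7-fold rise, and from 2.18, 2.70 and 1.04 CPM to 13.8, 17.7 and 15.3 CPM in slr-1. CBP60G, a calmodulin-binding regulator of salicylic acid synthesis, went from 0.197, 3.15 and 0.610 CPM to 17.3, 21.6 and 14.7 CPM, and fell in slr-1 from 7.77 to 14.0 CPM to 0.966 to 1.3 CPM. The responses differed by 2.60 ± 0.60 for PLA2A and 7.01 ± 0.76 for CBP60G (log2, edgeR adjusted p = 0.00591 and 1.97e-06). AT1G26240, an extensin-like gene, rose 30.2-fold from 0.370, 1.04 and 0.687 CPM to 20.2, 30.4 and 14.0 CPM, and GLP9, a germin-like protein, rose 13.5-fold. AT5G52050, a MATE efflux transporter, rose 33.0-fold here and from 0.811 to 1.14 CPM to 18.7 to 26.3 CPM in slr-1. CCOAMT, a caffeoyl-CoA methyltransferase, rose 22.6-fold and AT4G18280, a glycine-rich cell wall protein, 13.4-fold. AT4G35770, of the rhodanese superfamily, spread widely, from 6.61, 0.654 and 2.87 CPM to 81, 7.99 and 197 CPM, with replicate 2 lowest in both groups. Of 6 tested immune genes 5 rose and 0 fell in each genotype. FRK1, a receptor-like kinase gene induced by flagellin, rose 5.53-fold, and MYB15 went from 0.419, 1.1 and 0.280 CPM to 4.91, 16.5 and 2.15 CPM, with replicate 2 highest.

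The upstream window of CYP82C2, which leads the rises, is shown with the W-boxes TTGACC and TTGACT, elements that WRKY factors bind, searched on both strands and in capitals. The motif was chosen after the values were seen. The window (chr4:15462100-15462399, plus strand, RefSeq TAIR10.1) holds 3 matches, at -250, -143 and -96, 2 of them on the opposite strand as GGTCAA. It also holds 2 auxin response elements, which are not in capitals.
CYP82C2: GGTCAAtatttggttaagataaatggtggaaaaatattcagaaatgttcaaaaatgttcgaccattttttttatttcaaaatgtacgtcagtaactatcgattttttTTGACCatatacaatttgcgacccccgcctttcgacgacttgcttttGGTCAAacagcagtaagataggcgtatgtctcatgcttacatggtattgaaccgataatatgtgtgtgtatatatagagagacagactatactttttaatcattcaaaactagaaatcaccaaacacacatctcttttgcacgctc
A W-box lay in 32.9% of all windows, in 38.9% of those of genes that rose, in 32.9% of those of genes that fell and in 47.1% of the 344 windows of genes that rose by at least 2 log2 units. Of the 13 windows of indolic defence genes 4 held one, which is 30.8%. No match was found in the window of CYP71A12. Of 54 tested WRKY genes 22 rose and 8 fell, against 24 and 6 in slr-1. The count of lower ones here was 4 without control replicate 1 and 5 without control replicate 2. The call of WRKY70 was lost with the code letter n as a term (log2 1.25, edgeR adjusted p = 0.0563). WRKY22 went from 5.38, 4.00 and 5.11 CPM to 14.4, 13.4 and 14.1 CPM, WRKY70 from 8.27 to 8.36 CPM to 20.8 to 35.4 CPM, and WRKY40 from 0.992 to 1.16 CPM to 2.60 to 8.87 CPM.

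Some of the large rises at 2 h were not seen in the 4 h libraries of the genotype, and others were. Genes chosen for a large rise at 2 h tend to be lower at other times. The mean of 3 libraries of CYP82C2 was 0.168 CPM at 4 h, that of AT1G26390 was 0.934 CPM and that of CYP71A12 was 4.03 CPM, within or below the range of the untreated libraries. PLA2A stood at 14.0 CPM at 4 h and 1.56 CPM at 8 h, and RD29A at 187, 61.0 and 39.5 CPM at 4, 8 and 16 h. Mean levels at 4 h were also above all 3 untreated libraries for AT5G52050 (8.43 CPM), CCOAMT (4.97 CPM), AT4G18280 (7.45 CPM) and GSTF7 (129 CPM). AT5G52050 was still at 6.23 CPM at 24 h. AT1G26240 stood at 0.783 CPM at 4 h and at 5.93 CPM at 24 h. IAA19 stood at 24.0, 25.2, 29.1 and 51.0 CPM at 4, 8, 16 and 24 h, and GH3.3 at 856, 1350, 2220 and 1170 CPM. The later times are compared with the same 3 untreated libraries and are given as levels for that reason.

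**Figure D4:**
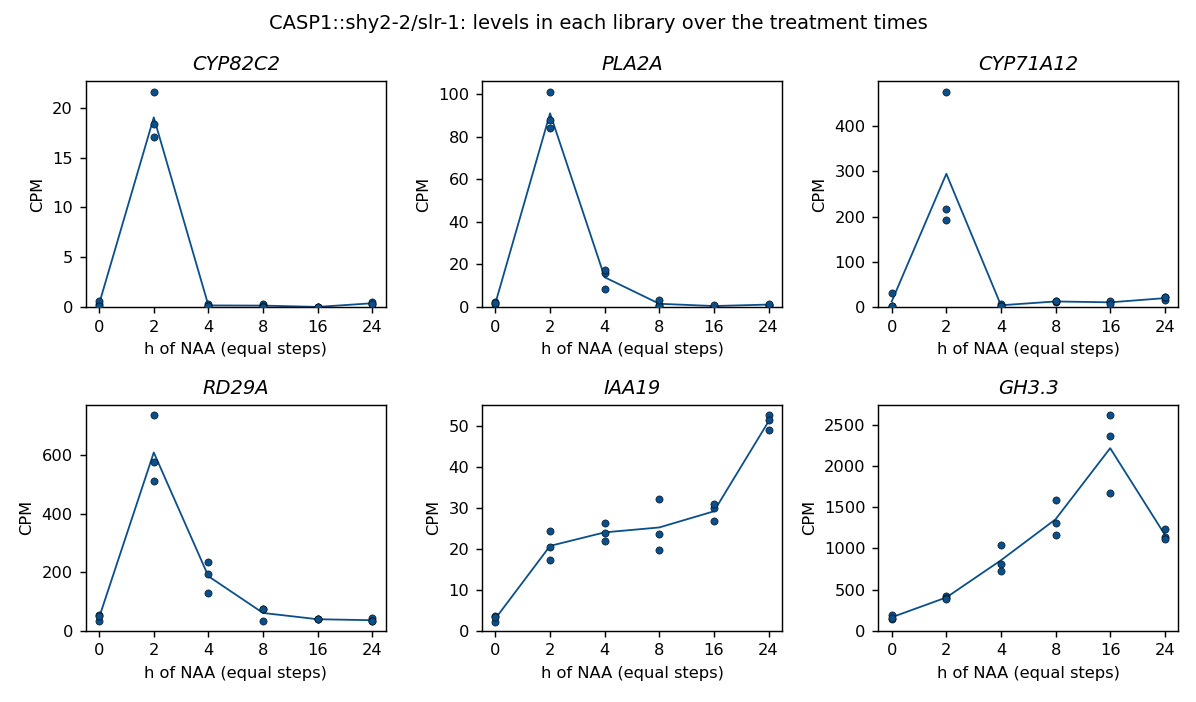
Points are CPM in single CASP1::shy2-2/slr-1 libraries for 6 genes at 0 (untreated), 2, 4, 8, 16 and 24 h of NAA, drawn at equal steps, and lines join the means of 3. CYP82C2, PLA2A, CYP71A12 and RD29A peak at 2 h, while IAA19 and GH3.3 are higher at 24 h than at 2 h.

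Of 42 tested genes of glutathione transferases, which conjugate foreign and reactive compounds, 20 rose and 2 fell. In slr-1 26 rose and 5 fell, with a median log2 change of 0.91 against 0.54 here. In the test of the difference 4 of the 42 responded more here and 5 less, beside 8.49% and 7.07% of all genes. GSTF6 (AT1G02930) went from 4.61, 32.4 and 4.50 CPM to 398, 446 and 374 CPM and its near-identical neighbour GSTF7 from 14.1, 84.2 and 16.0 CPM to 831, 796 and 802 CPM. Control replicate 2 was the highest control of both, and all treated libraries lay far above it. The rises of 29.1-fold and 21.2-fold exceeded those in slr-1 by 2.92 ± 0.67 and 2.96 ± 0.58 log2 units (edgeR adjusted p = 0.0059 and 0.0019). How reads were divided between this pair is not known. GSTU4 and GSTF2 rose 7.61-fold and 9.76-fold. Of the 8 genes of a detoxification list 7 rose and 0 fell, with GSTU24 at 2.83-fold and OPR1, an oxophytodienoate reductase, at 2.58-fold. In slr-1 all 8 rose, and in the test of the difference 0 responded more here and 1 less, beside 8.49% and 7.07% of all genes. ZAT12, a stress-induced zinc finger factor, rose 2.64-fold. Of the 7 genes of its heat and oxidative stress list 1 (14.3%) rose and 0 fell. Of 65 tested heat shock protein genes 2 (3.08%) rose and 11 (16.9%) fell, beside 15.7% and 15.4% of all genes. The 11 became 5 without 2 h replicate 1 and 20 without 2 h replicate 2. Among UDP-glycosyltransferases 29 of 110 rose and 14 fell, and 8 fell without 2 h replicate 1. UGT73B2, which glucosylates flavonols, rose 2.59-fold, with part of its sequence shared by close copies. Of 239 listed cytochrome P450 genes 77 did not pass the filter on low counts, and of the rest 36 (22.2%) rose and 26 (16%) fell, beside 15.7% and 15.4% of all genes. Their median log2 change was 0.02, and that of the UDP-glycosyltransferases 0.07.

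Lists for other hormones were counted in the same way. Of 13 tested abscisic acid genes 7 rose and 0 fell, against 11 and 0 in slr-1. RD29A (AT5G52310), a gene of dehydration and cold responses, went from 32.5, 54.7 and 50.6 CPM to 513, 579 and 738 CPM, a 13.3-fold rise (log2 3.73 ± 0.24, edgeR adjusted p = 3.31e-11), and from 78.4 to 92.5 CPM to 866 to 931 CPM in slr-1. The phosphatase genes ABI1 and HAB1, inhibitors of abscisic acid signalling, rose 1.88-fold and 1.76-fold. Of 22 ethylene genes 11 rose and 2 fell, against 10 and 0 in slr-1. Here 7 were higher without 2 h replicate 1 and 1 lower without control replicate 3. ACS6, which makes the ethylene precursor, went from 10.6, 17.0 and 10.4 CPM to 40.0, 70.2 and 35.6 CPM, ACS7 rose 2.4-fold, the F-box gene EBF2 1.87-fold and the receptor gene ERS1 1.5-fold. Cytokinin genes gave 8 higher (30.8%) and 6 lower (23.1%) of 26, beside 15.7% and 15.4% of all genes. The counts were also 8 and 6 in slr-1. Here they were 5 and 8 when scaled by total counts and 4 and 3 with the code letter n as a term. CKX1, a cytokinin oxidase, went from 4.34, 2.96 and 3.31 CPM to 14.7, 17.9 and 15 CPM (4.50-fold), CKX6 rose 3.2-fold and AHP1, a phosphotransfer protein, 1.74-fold. AHP4 of the same family went from 0.173, 0.225 and 0.153 CPM to 0.929, 1.83 and 1.08 CPM. Of 16 tested jasmonate genes 8 rose and 1 fell, but without 2 h replicate 2 the counts were 5 and 3, and with the code letter n as a term they were 1 and 3. JAZ1, a repressor of jasmonate signalling, stood at 48.2, 70.8 and 55.3 CPM untreated and at 93.5, 192 and 79.8 CPM at 2 h, with replicate 2 highest in both groups, and VSP1, a vegetative storage protein, fell 2.31-fold. Among AP2/ERF factors 25 of 75 rose and 6 fell, and ABR1 of that family rose 8.97-fold, from 2.12, 0.940 and 1.20 CPM to 8.93, 24.3 and 4.72 CPM.

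The largest fall under the same limits was that of AT5G14650, annotated as a pectin lyase-like protein, which fell 13.6-fold from 31.5, 12.8 and 47.5 CPM to 2.55, 1.96 and 2.23 CPM (log2 -3.76 ± 0.63, edgeR adjusted p = 6.53e-05). AT1G02810, of the pectin methylesterase family, fell 4.21-fold, and the gibberellin-regulated gene GASA5 fell 5.19-fold, from 92.4, 63.5 and 93.3 CPM to 8.78, 21.5 and 17.8 CPM. Of 23 tested expansin genes, which loosen cell walls, 8 (34.8%) fell and 3 (13%) rose, beside 15.4% and 15.7% of all genes. Expansin genes fell in 9 and rose in 4 cases in slr-1. With the code letter n as a term 4 fell and 3 rose here. EXPB3 went from 890, 688 and 843 CPM to 172, 308 and 249 CPM and EXPA15 from 307, 280 and 260 CPM to 43.8, 118 and 69.7 CPM. Both were highest in replicate 2 at 2 h and did not overlap with the controls, while EXLA2 rose 2.85-fold. Xyloglucan endotransglucosylase genes gave 4 higher (17.4%) and 3 lower (13%) of 23, shares near the 15.7% and 15.4% of all genes. The counts turned to 3 and 4 when scaled by total counts, and the lower ones were 1 without 2 h replicate 1 and 6 without 2 h replicate 2. XTH30 of that family rose 2.64-fold, from 39.1, 46.1 and 39.7 CPM to 107, 82.2 and 141 CPM, against 66.6 to 87.0 CPM and 58.1 to 82.1 CPM in slr-1 (difference 1.49 ± 0.26 on the log2 scale, edgeR adjusted p = 0.000892). Further large falls were those of AT3G46880, an uncharacterized protein (11.8-fold), and AT4G35720 (5.90-fold), which fell 16.1-fold and 5.76-fold in slr-1. AT2G48080 and AT2G36690, both 2-oxoglutarate-dependent oxygenases, fell 7.63-fold and 3.78-fold, against 2.34-fold and 1.95-fold in slr-1. AT4G12500, of the lipid-transfer superfamily, fell 4.56-fold, against 3.48-fold in slr-1. AT5G42840 fell 3.69-fold, EMB2729, of the alpha amylase family, 3.66-fold, AT5G35940, a mannose-binding lectin, 3.65-fold and AT4G21903, a MATE transporter, 3.57-fold. MVP1, of the GDSL lipase family, fell evenly from 304, 329 and 310 CPM to 146, 149 and 148 CPM.

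Nitrate genes fell in 4 of 11 tested members and rose in 0, against 6 and 1 in slr-1. NPF6.3 (NRT1.1), the nitrate transporter and sensor, went from 582, 594 and 580 CPM to 130, 301 and 129 CPM (log2 -1.65 ± 0.30, edgeR adjusted p = 0.000148). NIR1, nitrite reductase, fell 2.91-fold from 332, 264 and 300 CPM and NRT2.1, the high-affinity transporter, went from 76.0, 97.4 and 84.0 CPM to 40.7, 17.8 and 19.2 CPM. Replicate 2 was the highest treated library for NPF6.3 and NIR1 and the lowest for NRT2.1, and no treated library reached a control. Without 2 h replicate 2 alone 1 nitrate gene was higher and 5 lower. With the code letter n as a term, and without that library, 1 was higher and 2 lower, and NRT2.1 lost its call. Cell cycle genes gave 1 higher and 5 lower of 15, against 1 and 7 in slr-1. The 1 higher here was lost with any of 4 libraries left out, and scaling by total counts gave 0 and 9. CYCD3;1 and CYCA2;4, both cyclins, fell 2.20-fold and 2.06-fold. Water channel genes rose in 9 of 19 and fell in 1, and 5 rose and 0 fell without 2 h replicate 1, against 3 and 2 in slr-1. PIP1B went from 449, 514 and 458 CPM to 1350, 874 and 1200 CPM and RD28, another plasma membrane aquaporin, from 55.9, 61.3 and 64.7 CPM to 152, 127 and 108 CPM. Of 20 iron genes 5 rose and 1 fell, with 2 higher without control replicate 1 or 3, 3 without 2 h replicate 2 and 9 without control replicate 2, and with 2 higher and 4 lower with the code letter n as a term. BTS, an E3 ligase of the iron response, rose 1.88-fold and bHLH39, a regulator of iron uptake, 3.29-fold, from 26.7, 81.4 and 24.0 CPM to 123, 205 and 107 CPM. Of 15 clock genes 6 rose and 1 fell, against 7 and 2 in slr-1. The 1 that fell here was GRP7, from 492 to 546 CPM to 379 to 393 CPM, while ELF3 rose 1.47-fold. SWEET2, a vacuolar sugar transporter, rose 5.11-fold from 58.5, 46.0 and 60.5 CPM to 300, 176 and 367 CPM. Of 5 markers of the pericycle and stele 2 rose and 1 fell. The stele markers WOL, a cytokinin receptor, and AT4G30450, a glycine-rich protein, moved in opposite directions, 1.62-fold lower and 1.98-fold higher.

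Set against slr-1 over all genes, 1741 of the genes that rose here also rose there, which is 52.9% of the rises here and 41.0% of the 4243 rises (20.3% of genes) in slr-1. For falls the overlap was 1718 genes, 53.4% of those here and 36.4% of the 4721 (22.5%) there. Opposite calls were few, with 118 genes higher here and lower in slr-1 and 68 the reverse. The responses correlated across genes with Pearson's r of 0.46 and Spearman's rho of 0.46, a description over genes that share the same libraries. The test of the difference called 1777 genes (8.49%) with a higher and 1481 (7.07%) with a lower response in CASP1::shy2-2/slr-1. These counts depended on single libraries and are given with their range in the closing section. Without 2 h replicate 2 they were 3216 and 2630, and without 2 h replicate 3 580 and 604.

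The genes with the smallest p for a lower response were led by AT3G24240, a leucine-rich repeat receptor-like kinase, which went from 16.7, 17.5 and 22.3 CPM to 9.50, 14.0 and 8.40 CPM here and from 19.2, 18.8 and 28.9 CPM to 117, 101 and 93.6 CPM in slr-1. Its responses differed by -3.04 ± 0.27 (log2, edgeR adjusted p = 1.57e-07). A second receptor-like kinase gene, AT1G34110, stood at 2.32, 1.90 and 2.49 CPM untreated and at 1.41, 1.22 and 1.19 CPM at 2 h here, and went from 5.09, 7.75 and 10.4 CPM to 28.5, 26.9 and 26.9 CPM in slr-1, a difference of -2.62 ± 0.32. AT1G78530, a protein kinase, stood at 3.33, 3.1 and 3.33 CPM untreated and 3.69, 3.32 and 3.34 CPM at 2 h here, but went from 7.34 to 8.16 CPM to 17.5 to 19.5 CPM in slr-1 (difference -1.16 ± 0.12). The methyltransferase AT2G41040 and the monooxygenase FMO (AT1G12200) differed by -1.25 ± 0.15 and -1.01 ± 0.12. In the upward direction AT4G00910, an aluminium-activated malate transporter, stood at 48.6, 87.8 and 54.6 CPM untreated and 121, 61.3 and 116 CPM at 2 h here, and fell in slr-1 from 79.8 to 86.2 CPM to 20.7 to 27.6 CPM (difference 2.38 ± 0.33). SLAH1, an anion channel homologue of the stele, went from 6.64, 14.0 and 6.54 CPM to 27.1, 24.0 and 23.3 CPM here and from 41.9, 41.8 and 30.7 CPM to 14.7, 15.5 and 19.4 CPM in slr-1, a difference of 2.65 ± 0.37. BGLU46, a beta-glucosidase, and AT4G23870, an uncharacterized protein, also rose here and fell in slr-1, with differences of 2.01 ± 0.26 and 3.05 ± 0.38. WLIM1 stayed within 87.2 to 113 CPM here and fell from 132 to 149 CPM to 72.1 to 76.5 CPM in slr-1, a difference of 0.73 ± 0.10. All differences in this set had an edgeR adjusted p of 9.85e-05 or less.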

How the data were processed

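RNA from root sections was sequenced as stranded mRNA libraries, per the labels' protocols. The authors deposited raw read counts per gene, made with cutadapt 1.3, STAR 2.4.0a and HTSeq 0.6.1 on TAIR10, per the submitters' processing notes. Settings and the use of strand in counting are not given in the sources used here. The 5 summary categories were left out. Symbols, coordinates and upstream windows come from RefSeq TAIR10.1, in which 31912 of 32678 genes were found, and coordinates serve for identity only.

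After filterByExpr over the 12 groups (20939 genes kept), counts were scaled by TMM and tested with edgeR 4.0.16 (R 4.3.3) by a robust quasi-likelihood F-test with 1 mean per group over all 36 libraries (24 residual degrees of freedom), so that all groups share 1 estimate of the spread. Every adjusted p is Benjamini-Hochberg over all genes tested, and errors of log2 changes are SE. CPM are scaled by TMM. The scripts were tested on simulated data.

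The text draws on a rule naming IAA3, IAA14, CASP1, the 15 largest rises and falls (adjusted p under 0.05, mean log2 CPM of at least 1, no overlap), up to 4 genes per list by p, and the 10 genes with the smallest p of the difference in each direction. It names fewer where single libraries decide the call. The comparison, the lists and the rule were chosen with earlier results of these data known. Alternatives were RLE and total count scaling, DESeq2 1.42.0, other filters and thresholds, only the groups compared, the replicate number as a block, the code letter n as a term, and each library left out.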

Additional observations from a re-analysis of the deposited data

Results flagged for a closer look

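The test of the difference between the 2 h responses (CASP1::shy2-2/slr-1 minus slr-1, log2, edgeR with adjusted p under 0.05) called the 35 genes listed here, each with 3 libraries in each of the 4 groups. The list does not hold every named gene under that threshold. AT4G35770 (6.38 ± 1.62, edgeR adjusted p = 0.0104) and CCOAMT (2.16 ± 0.64, edgeR adjusted p = 0.0249) also passed it. Of the genes tied to auxin, the difference was -2.49 for IAA14, -2.5 for GH3.2, -2.76 for GH3.3, -0.94 for ARF6, -0.72 for ARF8, -1.08 for ARF16, -0.71 for PILS3 and -1.89 for LBD18. In suberin and flavonoid synthesis it was -0.97 for KCS20, -1.4 for FAR4, -2.47 for GPAT7, -2.86 for TT7 and -1.01 for TT4. Among kinases and enzymes it was -3.04 for AT3G24240, -1.16 for AT1G78530, -1.25 for AT2G41040, -2.62 for AT1G34110 and -1.01 for FMO. These genes, and AT4G23870, BGLU46, AT4G00910, SLAH1 and WLIM1 below, were named for a small p in this same test. Their call was therefore fixed beforehand. GH3.2, AT1G26390, CYP71A12 and CBP60G were also among the genes with the smallest p in it.

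Genes with a higher response differed by 6.45 for CYP82C2, 2.6 for PLA2A, 9.57 for AT1G26390, 6.54 for AT1G26240, 2.92 for GSTF6, 9.45 for CYP71A12, 2.96 for GSTF7, 4.06 for AT1G26380, 3.54 for GLP9, 7.01 for CBP60G and 3.16 for MYB122. Further ones were XTH30 (1.49), AT4G23870 (3.05), BGLU46 (2.01), AT4G00910 (2.38), SLAH1 (2.65) and WLIM1 (0.73). CYP71A12, AT1G26390 and CBP60G had every treated library above every control in CASP1::shy2-2/slr-1 and every treated library below every control in slr-1. The separation in CASP1::shy2-2/slr-1 was a condition for the largest rises, to which these genes belong, and that in slr-1 was not.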

How the results depend on the processing

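With only the groups compared in the fit, and so with less information on the spread, 1675 genes were higher and 1094 lower at 2 h, and 517 and 560 responded more and less than in slr-1. At an adjusted p under 0.01 these counts were 2186, 1827, 463 and 530, and with a log2 change of at least 1 they were 988, 441, 583 and 464. Leaving out 1 library gave 2504 to 3736 higher and 1944 to 3787 lower genes, with the lowest count of lower genes without 2 h replicate 1. For the difference the ranges were 580 to 3216 and 604 to 2630, lowest without 2 h replicate 3 and highest without 2 h replicate 2. Libraries that moved a count of the difference by over 1.5 times were also 2 h replicate 1 (965 lower), control replicate 3 (1060 and 901), slr-1 2 h replicates 1 (1055 higher, with fewer lower too) and 2 (1178 and 900) and slr-1 control replicate 1 (779 and 703). With the code letter n as a term, without 2 h replicate 2, the difference gave 3463 and 2845 and the response 2473 and 2686. The cause was not tested.

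Of 108 named genes called in the response, 14 lost the call under 1 or more settings. With only the groups compared these were AT4G35770, AT5G35940, ARF8, FAR4, GPAT7, MYB39, AHP1, VSP1, JAZ1, bHLH39, AT3G24240 and AT4G23870, with the code letter n as a term GPAT7, WRKY70 and NRT2.1, and without 1 library FAR4 and GPAT7. Of the 35 listed above as called in the difference, 2 lost it (GSTF6 and GSTF7, with only the groups compared). AT4G35770 and CCOAMT were not part of that count. The named genes were chosen by size or p, and fewer were named where single libraries decide the call. These losses, and those under the replicate block below, therefore do not describe the calls over all genes, whose counts moved as given above. The uncalled changes of IAA14 and CASP1 changed sign without 2 h replicate 3 (0.08 and 0.09) or control replicate 2 (0.05 and 0.17), and were lowest without 2 h replicate 2 (-0.7 and -0.72). DESeq2 gave 3705 higher and 3103 lower genes. Deviations of same-numbered libraries from their group means correlated with r of 0, 0.108 and -0.024. For 2 h replicate 2, r was -0.115 and -0.047 with control replicates 1 and 3. Deviations from a mean of 3 sum to 0, so these values cannot decide whether libraries were paired. The replicate block gave 3248 higher and 3161 lower genes and 1725 and 1441 for the difference, and no named gene lost its call. At these depths, genes far below 1 CPM rest on few reads.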
